A study of Mus musculus with 12 samples.

Results

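The unfolded protein response and the integrated stress response were examined as a set of 44 genes in 2 arms. The ATF4 arm holds 24 genes: transcription factors, feedback regulators, and enzymes and transporters for amino acid synthesis, amino acid uptake and tRNA charging. The ER arm holds 20 genes: the sensors of unfolded protein in the endoplasmic reticulum, the factor XBP1, and the chaperones and degradation factors of that compartment. Members were picked by gene symbol from knowledge of the pathways, with earlier results of these data known. Of the 44, 43 were found among the 18546 genes measured, 23 in the ATF4 arm and all 20 in the ER arm. Expression of Chac1 was not analysed here, and it enters only the promoter search below.

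RNA was sequenced from bone marrow hematopoietic stem cells (HSCs) of C57BL/6 mice aged 10 to 12 weeks. The cells were sorted as CD150+CD48-Lin-Sca1+cKit+, a surface phenotype known as SLAM that enriches for long-term HSCs. The 4 genotypes, with 3 libraries each, were wild type, NrasG12D/+ (1 activating allele of a Ras GTPase), Tet2+/- (loss of 1 allele of an enzyme that oxidizes methylated cytosine) and NrasG12D/+;Tet2+/-, which carries both and is called the compound mutant below. Ribosomal and mitochondrial RNA had been removed before library preparation with a stranded kit. The labels name no promoter or Cre for either allele, and do not say whether the 3 libraries of a genotype came from separate mice, so p-values measure the spread between these libraries.

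Misfolded protein in the endoplasmic reticulum activates PERK (Eif2ak3), IRE1 (Ern1) and ATF6. PERK and its sister kinases, which sense amino acid shortage, heme shortage or viral RNA, phosphorylate the translation factor eIF2, which lowers general translation while translation of Atf4 mRNA increases. IRE1 splices Xbp1 mRNA into the form that encodes the active factor. Since ATF4 is controlled largely by translation and XBP1 by splicing, gene-level mRNA does not measure the activity of either, and their target genes are the readout available here. HSCs are known for a low rate of protein synthesis and for their sensitivity to misfolded protein.

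Some of the members' promoters hold short sequence elements known from these pathways, shown here as a feature of the members that uses no expression value. Most members had none of the elements searched. In RefSeq (GRCm38.p6), 21 ATF4-arm and 17 ER-arm members had a promoter entry, and the 250 bases before each start were searched on both strands. The ER stress response element, CCAAT and CCACG separated by 9 bases of any kind, was found in 7 of 17 ER-arm windows (Hspa5, Hsp90b1, Pdia6, Dnajc3, Creld2, Calr and Canx), in 0 of 21 ATF4-arm windows and in 0.13% of the 27025 genes with a window. ERSE-II, ATTGG and CCACG separated by 1 base, was present in Herpud1 and in 0.037% of all genes. The C/EBP-ATF response element, TGATGNAA, was found in 5 of 21 ATF4-arm windows (Asns, Chac1, Slc7a11, Aars and Gars), in 1 ER-arm window (Herpud1) and in 3.907% of all genes. The UPR element TGACGTGG was in no member's window and in 0.603% of all genes. A match is a string of letters, not evidence of binding. Members were picked from knowledge of the same pathways, so these shares are no independent support for the set. In the stretches below, read 5′ to 3′ on the gene's strand, capitals mark the element. Where an element lies on the opposite strand, its reverse complement is in capitals.
Hspa5 (chr2:34772020-34772048, +): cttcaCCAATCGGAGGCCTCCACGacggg
Calr (chr8:84847055-84847113, -, opposite): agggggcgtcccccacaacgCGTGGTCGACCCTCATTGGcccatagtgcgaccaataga
Pdia6 (chr12:17266471-17266529, +): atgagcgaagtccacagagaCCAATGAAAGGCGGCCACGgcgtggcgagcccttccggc
Creld2 (chr15:88819500-88819558, +, opposite): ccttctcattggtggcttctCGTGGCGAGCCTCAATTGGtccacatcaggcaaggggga
Hsp90b1 (chr10:86705513-86705571, -, opposite): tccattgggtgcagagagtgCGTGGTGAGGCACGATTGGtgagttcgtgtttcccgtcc
Herpud1, ERSE-II (chr8:94386357-94386407, +): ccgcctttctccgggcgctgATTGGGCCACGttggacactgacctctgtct
Asns, C/EBP-ATF element (chr6:7693220-7693237, -): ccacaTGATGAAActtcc
Gars, C/EBP-ATF element (chr6:55037951-55037998, +, opposite): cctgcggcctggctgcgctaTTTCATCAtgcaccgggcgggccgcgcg

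Library depth ran from 19205045 to 36890942 reads in genes, and 1000 to 3824 genes per library had 0 reads. HSC markers were present throughout, with Kit at 64.7 to 86.0 RPKM (read counts divided by the gene's length and the library's total) and Hlf at 38.6 to 68.1 RPKM, while Cd48, which the gate excludes, reached 1.28 RPKM at most. The plasma cell gene Jchain did not exceed 0.420 RPKM and the granulocyte gene Mpo 0.953 RPKM, although Lyz2, another granulocyte and monocyte gene, stood at 75.2 to 109 RPKM. Nras mRNA was 4.76 to 6.47 RPKM in NrasG12D/+ against 4.95 to 6.13 RPKM in wild type, and Tet2 mRNA 4.09 to 5.23 RPKM in Tet2+/- against 4.93 to 4.98 RPKM. The labels do not give the part of Tet2 that the allele lacks, so its total level does not check that genotype, nor can a level check a point mutation.

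HSCs of all 4 genotypes expressed nearly the whole set. Members at 1 RPKM or more in all 12 libraries numbered 37, and 5 others (Trib3, Asns, Psph, Mthfd2 and Creld2) reached it in 10 or 11. Slc7a11, the cystine transporter, reached 1 RPKM in 0 libraries and was not tested, which left 22 ATF4-arm and 20 ER-arm members. The calcium-binding chaperone Calr had the highest level of the set, with a median of 135 RPKM over the 12 libraries, followed by Pdia3 at 72.5 RPKM and Atf4 at 67.3 RPKM. The least variable were chaperones and a sensor, with the highest library 1.41 times the lowest for Canx, 1.46 times for Pdia3 and 1.47 times for Atf6. The most variable of the 37 were Ddit4 at 9.26 times, Ppp1r15a at 8.76 times and Sdf2l1 at 7.13 times.

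No member passed the test in any genotype comparison. Differences are on the log2 RPKM scale, fitted with limma over all 12 libraries and adjusted by Benjamini-Hochberg over 15478 genes, with a call at adjusted p under 0.05. In the compound mutant against wild type, 0 of 42 members were called (0.00646% of all tested genes), and 1 was higher and 4 were lower at an unadjusted p under 0.05 (6.42% of all genes in either direction). In NrasG12D/+ against wild type, 0 were called (0.00646% of all genes) and 2 were lower at the unadjusted level (5.61%). In Tet2+/- against wild type, 0 were called (0.00646%) and 1 was higher at that level (3.35%). These comparisons share the same 3 wild-type libraries. With voom, limma's method for read counts, 0 members were called in each of the 8 comparisons.

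The other 5 comparisons also called 0 members. Against the background of all genes, 0% were called for the compound mutant over NrasG12D/+, 0.00646% for the compound mutant over Tet2+/-, and 0.0129% for the interaction, the compound mutant's difference beyond the sum of the single mutants' differences. The remaining pair averaged each allele over the genotypes of the other, with 0.0323% of genes called for the Nras allele and 0% for the Tet2 allele. At an unadjusted p under 0.05, the members numbered 1 higher for the compound mutant over NrasG12D/+ (4.04% of all genes), 2 lower for the compound mutant over Tet2+/- (5.45%), 0 for the interaction (3.38%), 2 lower for the Nras allele (7.24%) and 1 higher for the Tet2 allele (3.81%).

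**Figure D1:**
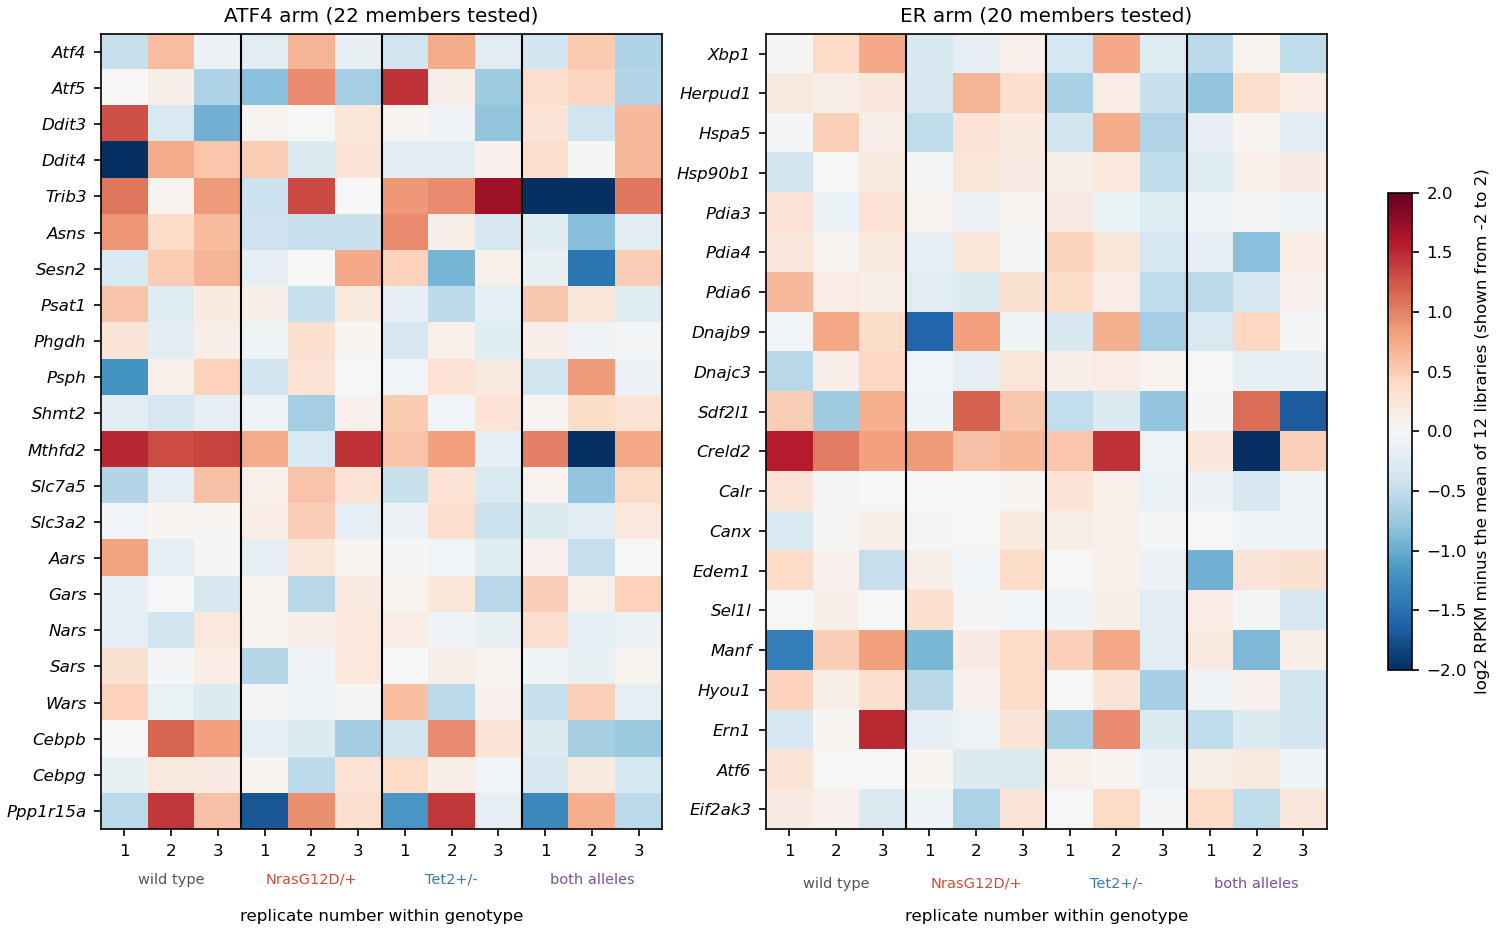
Level of each tested member in the 12 libraries, as log2 RPKM minus the member's mean over all libraries, with genotypes in blocks of 3 and colour running from -2 (blue) to 2 (red). Most ER-arm rows are pale, and the darkest blue cells are Ddit4 in wild-type replicate 1, Trib3 in compound mutant replicates 1 and 2, and Mthfd2 and Creld2 in compound mutant replicate 2.

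Most ER-arm estimates lay below 0 in the compound mutant, and of their 95% intervals that of Xbp1 alone excluded 0. Of 20 members, 18 had a negative difference against wild type (48.3% of all tested genes) and the median was -0.25, beside 0.02 for all genes. The same count was 13 of 20 in NrasG12D/+ (48.6% of all genes) with a median of -0.14, and 14 of 20 in Tet2+/- (45.7%) with a median of -0.16. Against NrasG12D/+ the compound mutant had 17 negative differences (50.8%) and a median of -0.14, and against Tet2+/- 13 (52.9%) and a median of -0.10. The interaction split the arm evenly, 10 and 10 (53.7% of all genes negative), with a median of -0.01. Averaged over the other gene's genotypes, both the Nras allele (51.1%) and the Tet2 allele (47.5%) had 15 of 20 negative, with medians of -0.11 and -0.14. Summed over the arm, RPKM ran from 490 to 525 in the compound mutant, 586 to 666 in wild type, 508 to 596 in NrasG12D/+ and 452 to 665 in Tet2+/-, so that only wild type lay clear of the compound mutant. This was not particular to the arm. Further ER folding and degradation genes outside the set summed to 687 to 719 RPKM in the compound mutant and 720 to 820 RPKM in wild type. Cytosolic heat shock genes summed to 395 to 430 RPKM and 438 to 449 RPKM. Sums of mitochondrial protein stress genes and of the ATF4 arm overlapped between these groups. Other genes had estimates in step with this comparison. Of 11 tested genes induced by cell sorting and handling, such as Fos, Jun and Egr1, 10 were negative in the compound mutant against wild type, with a median of -0.64 and 0 called. Of 6 megakaryocyte markers, 5 were positive, with a median of 1.08 and 0 called. Their summed level was 37.7 to 44.9 RPKM in the compound mutant, 25.3 to 37.4 RPKM in wild type, 32.3 to 57.8 RPKM in NrasG12D/+ and 25.3 to 31.7 RPKM in Tet2+/-. Pf4, a platelet chemokine gene, read 1.84 to 2.71 RPKM in wild type and 7.38 to 10.6 RPKM in the compound mutant. Its difference was 1.84 ± 1.87 (unadjusted p = 0.35, adjusted p = 0.868), and NrasG12D/+ also lay wholly above wild type. Ppbp, another such gene, was at 0 reads in 7 of the 12 libraries. The largest marker estimates were those of Ppbp, 2.93 ± 3.68, and Gp1ba, 2.92 ± 2.04, and the negative marker was Vwf at -0.42 ± 0.35. Summed T and NK cell markers were 10.0 to 12.8 RPKM in the compound mutant against 5.62 to 9.16 RPKM in wild type. Of those tested, Nkg7 had a positive estimate and Cd4 and Thy1 negative ones. Of 10 HSC markers 7 were negative, and Fgd5, a gene of long-term HSCs, had a difference of -0.86 ± 0.24 (unadjusted p = 0.00477, adjusted p = 0.747) with no overlap. The part of these genes in the ER-arm values was not tested. Members share libraries and are not independent observations, so no test was made of these counts or sums, and fewer cells with a given level cannot be told apart from less RNA per cell.

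In the ATF4 arm, 14 of 22 compound mutant estimates were negative against wild type with a median of -0.08. NrasG12D/+ had 12 of 22 below 0 and a median of -0.03, and Tet2+/- had 12 of 22 and -0.08. Estimates in this arm spread widely, from -3.81 for Mthfd2 to 0.73 for Ddit4 in the compound mutant. In that comparison the compound mutant libraries lay wholly above wild type for 2 members, both of the ATF4 arm (6.09% of all genes), and wholly below for 7 (5.16%), of which 3 were ATF4-arm and 4 ER-arm members. The 2 were Shmt2 and Gars, and the 7 were Asns, Mthfd2, Cebpb, Pdia6, Creld2, Calr and Hyou1.

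**Figure D2:**
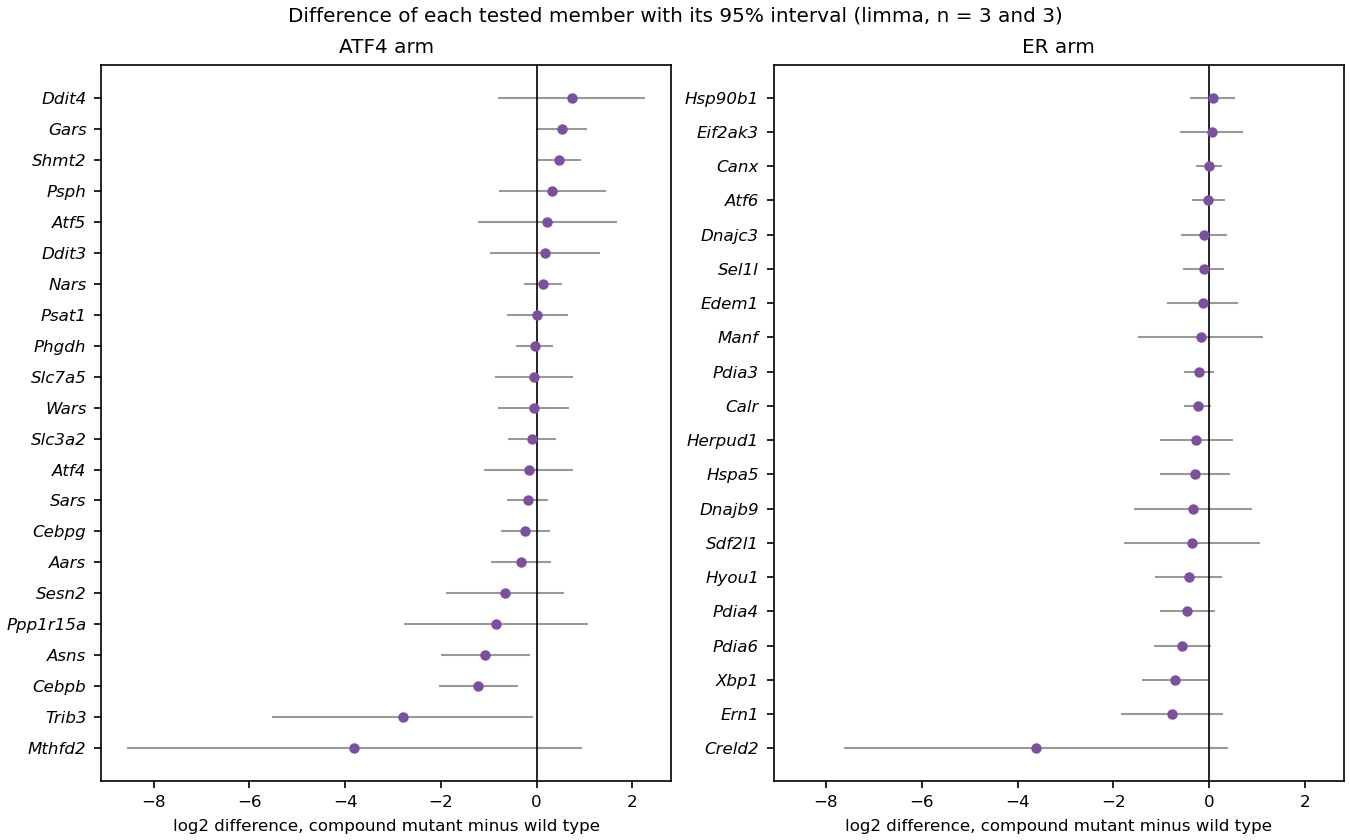
Difference of each tested member between the compound mutant and wild type on the log2 RPKM scale, with its 95% interval, in the ATF4 arm and the ER arm. Of the ER-arm points 18 of 20 lie left of 0, and the 5 intervals that exclude 0 before adjustment are those of Trib3, Cebpb, Asns, Xbp1 and, above 0, Shmt2.

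Among the transcription factors, Atf4 itself did not separate the genotypes. Its levels were 55.6, 118 and 70.7 RPKM in wild type, 65.1, 122 and 68.8 RPKM in NrasG12D/+, 58.0, 128 and 65.7 RPKM in Tet2+/- and 58.9, 110.3 and 50.2 RPKM in the compound mutant. Within each genotype the library numbered 2 was the highest, and all groups overlapped. The compound mutant differed from wild type by -0.17 ± 0.42 (SE), with a 95% interval of -1.10 to 0.76. Atf5, a stress-induced relative of ATF4, was low: 1.89, 2.05 and 1.23 RPKM in wild type, 1.06, 3.61 and 1.18 RPKM in NrasG12D/+, 5.12, 2.05 and 1.15 RPKM in Tet2+/-, and 2.40, 2.52 and 1.25 RPKM in the compound mutant. Ddit3, which encodes the pro-apoptotic factor CHOP, read 12.0, 3.98 and 2.52 RPKM in wild type, 5.11, 4.88 and 5.83 RPKM in NrasG12D/+, 5.11, 4.69 and 2.86 RPKM in Tet2+/-, and 5.95, 3.76 and 7.72 RPKM in the compound mutant. For both genes 1 library was the highest by a wide margin, a Tet2+/- library for Atf5 and a wild-type library for Ddit3, and every group overlapped every other. Ddit3 differed by 0.17 ± 0.51 between the compound mutant and wild type, an interval of -0.97 to 1.31. Cebpg, a dimer partner of ATF4, averaged 10.6 ± 1.31 RPKM (SD, n = 3) in wild type and 9.13 ± 1.97 RPKM (SD, n = 3) in the compound mutant.

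Cebpb, a transcription factor of myeloid differentiation and emergency granulopoiesis that is also an ATF4 target and partner, had the smallest p of the set. Wild-type libraries read 6.32, 14.0 and 11.1 RPKM and Tet2+/- libraries 4.80, 12.1 and 7.46 RPKM. NrasG12D/+ libraries read 5.52, 5.18 and 3.86 RPKM and compound mutant libraries 5.19, 3.95 and 3.75 RPKM. Libraries of NrasG12D/+ (4.48% of all genes) and of the compound mutant (5.16%) each lay wholly below wild type. The share of all genes with both was not computed. Among Tet2+/- libraries 1, at 4.80 RPKM, fell inside the range of the Nras carriers. The difference was -1.22 ± 0.37 for the compound mutant against wild type (unadjusted p = 0.00808, adjusted p = 0.754) and -1.05 ± 0.37 for NrasG12D/+ against wild type (unadjusted p = 0.018, adjusted p = 0.87). Averaged over the Tet2 genotype, the Nras allele gave -0.94 ± 0.26 (unadjusted p = 0.00497, adjusted p = 0.4), which is not a call. The interaction was 0.22 ± 0.53. The sign for the averaged Nras allele was negative under all 21 alternatives, from -1.22 to -0.77, with adjusted p from 0.113 to 0.604. Of the sorting and handling genes, 10 of 11 tested were also negative for the averaged Nras allele, with a median of -0.42 and 0 called. Megakaryocyte markers were positive for 5 of 6, with a median of 0.999 and 0 called. Of 10 HSC markers 3 were positive and 7 negative, with 2 higher and 3 lower at an unadjusted p under 0.05 and 0 called. Fgd5 read 5.52 to 9.92 RPKM in the 6 carriers against 11.2 to 15.1 RPKM in the other 6 libraries (0.388% of all genes wholly lower). Its difference was -0.82 ± 0.17 (unadjusted p = 0.000675, adjusted p = 0.249). The 2 higher were Ly6a (0.73 ± 0.24) and Tek (0.43 ± 0.18). Of 4 tested granulocyte and monocyte markers 2 were positive and 2 negative, among the latter Prtn3 at -0.56 ± 0.18 (unadjusted p = 0.0106, adjusted p = 0.492). The part of these genes in the Cebpb values was not tested. Of the gene's 1504 exon bases (chr2:167688915-167690418 in mm10, + strand), 20.7% overlap Tmem189 on the opposite strand, and whether strand was used in counting is not given in the sources used here.

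**Figure D3:**
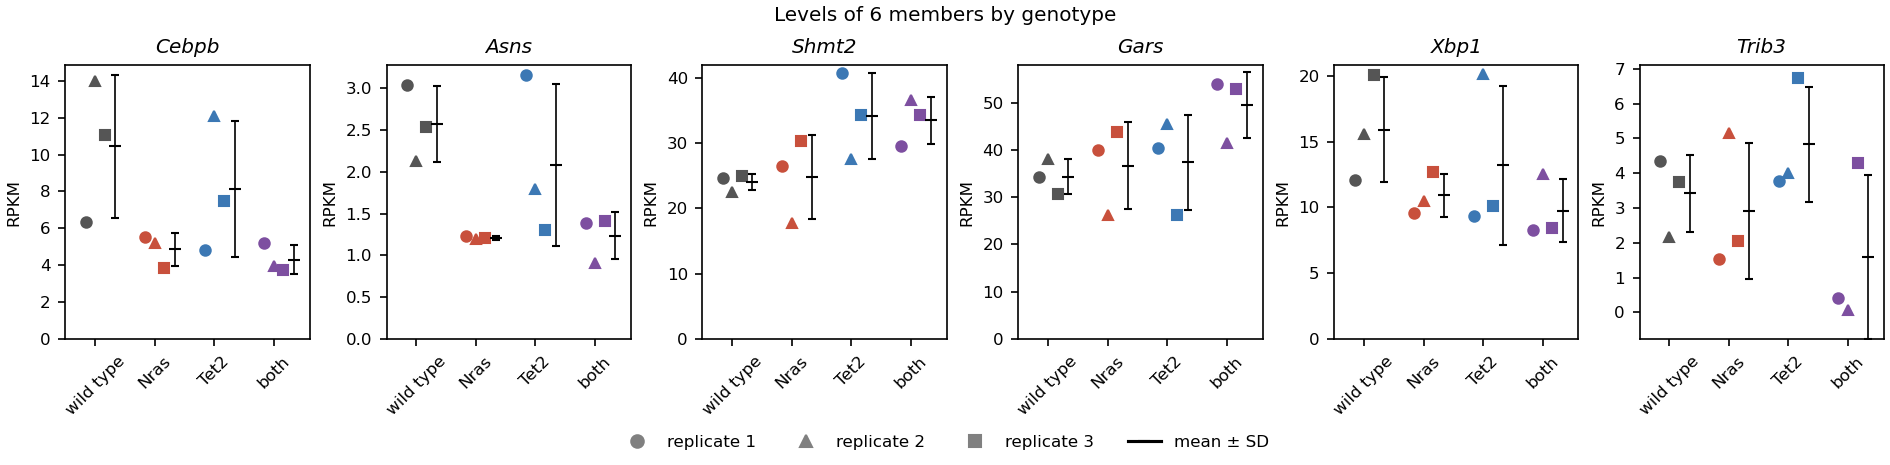
RPKM of 6 members in each library by genotype (Nras, NrasG12D/+; Tet2, Tet2+/-; both, the compound mutant), with the mean and SD of 3 libraries beside the points. Cebpb and Asns sit low in both groups that carry the Nras allele, Shmt2 sits high in both groups that carry the Tet2 allele, and 2 of 3 compound mutant libraries are near 0 for Trib3.

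The amino acid synthesis genes had estimates in different directions. Asns, asparagine synthetase and a classical ATF4 target whose promoter element is printed above, read 3.04, 2.13 and 2.54 RPKM in wild type, 1.23, 1.19 and 1.21 RPKM in NrasG12D/+, 3.16, 1.79 and 1.30 RPKM in Tet2+/-, and 1.39, 0.909 and 1.41 RPKM in the compound mutant. NrasG12D/+ (4.48% of all genes) and the compound mutant (5.16%) each lay below wild type without overlap, at 0.909 to 1.41 RPKM over 6 libraries. The share of all genes with both was not computed, and Tet2+/- spanned both levels. The difference from wild type was -1.07 ± 0.42 in NrasG12D/+ (unadjusted p = 0.0278, adjusted p = 0.87) and -1.07 ± 0.42 in the compound mutant (unadjusted p = 0.0281, adjusted p = 0.759). Asns and Cebpb were the 2 members whose NrasG12D/+ libraries lay wholly below wild type (4.48% of all genes), and 0 members lay wholly above (5.27%).

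Shmt2, the mitochondrial serine hydroxymethyltransferase that starts one-carbon metabolism from serine, was the member with the smallest p for the Tet2 allele. Its levels were 24.7, 22.6 and 24.9 RPKM in wild type, 26.4, 17.7 and 30.2 RPKM in NrasG12D/+, 40.7, 27.5 and 34.3 RPKM in Tet2+/-, and 29.5, 36.5 and 34.3 RPKM in the compound mutant. Tet2+/- (5.24% of all genes) and the compound mutant (6.09%) each lay wholly above wild type, and the share of genes with both was not computed. NrasG12D/+ reached 30.2 RPKM, inside the range of the Tet2 carriers. The difference from wild type was 0.49 ± 0.20 in Tet2+/- (unadjusted p = 0.035, adjusted p = 1) and 0.47 ± 0.20 in the compound mutant (unadjusted p = 0.0406, adjusted p = 0.76). The averaged Tet2 allele gave 0.48 ± 0.14 (unadjusted p = 0.00738, adjusted p = 0.963), with a positive sign under all 21 alternatives, from 0.36 to 0.56. For Tet2+/- against wild type, Shmt2 was the 1 member without overlap upward (5.24% of all genes) and Mthfd2 the 1 without overlap downward (4.01%).

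Mthfd2 encodes the next mitochondrial enzyme of the same one-carbon route. It read 3.604, 3.11 and 3.22 RPKM in wild type, 2.11, 1.02 and 3.45 RPKM in NrasG12D/+, 1.88, 2.24 and 1.12 RPKM in Tet2+/-, and 2.54, 0.00243 and 2.13 RPKM in the compound mutant. The middle value of the compound mutant is a count of 0 reads, for which a floor of 3 reads is 0.0249 RPKM, against 106 to 448 reads in the other 11 libraries. Its difference of -3.81 ± 2.14 became -0.51 without that library.

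The serine synthesis enzymes overlapped across the genotypes. Phgdh, which makes the first committed step from glycolysis to serine, read 14.5, 10.5 and 13.1 RPKM in wild type, 11.3, 15.1 and 12.4 RPKM in NrasG12D/+, 9.54, 13.0 and 10.2 RPKM in Tet2+/-, and 13.3, 11.5 and 11.9 RPKM in the compound mutant. Psat1, the following aminotransferase, read 7.57, 4.29 and 5.80 RPKM in wild type, 5.53, 3.78 and 5.87 RPKM in NrasG12D/+, 4.52, 3.56 and 4.48 RPKM in Tet2+/-, and 7.40, 6.08 and 4.33 RPKM in the compound mutant. Both overlapped among all groups, with intervals for the compound mutant against wild type of -0.43 to 0.35 for Phgdh and -0.63 to 0.66 for Psat1. Psph, the phosphatase that completes the route, averaged 1.77 ± 0.884 RPKM (SD, n = 3) in wild type and 2.14 ± 1.03 RPKM (SD, n = 3) in the compound mutant.

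Among transporters, Slc7a5, the catalytic chain of the leucine carrier LAT1, read 5.62, 7.44 and 12.7 RPKM in wild type, 9.07, 12.5 and 10.4 RPKM in NrasG12D/+, 6.23, 10.2 and 6.87 RPKM in Tet2+/-, and 8.88, 4.88 and 11.02 RPKM in the compound mutant. Its partner chain Slc3a2 averaged 14.8 ± 0.596 RPKM (SD, n = 3) in wild type and 14.0 ± 2.73 RPKM (SD, n = 3) in the compound mutant. Neither separated any pair of genotypes. Slc7a11 stayed between 0 and 91 reads per library, from 0.000483 to 0.240 RPKM.

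Of the 5 tRNA synthetases, Gars had the largest estimate. This glycyl-tRNA synthetase gene, whose promoter element is also shown above, read 34.4, 38.1 and 30.7 RPKM in wild type, 39.9, 26.3 and 43.9 RPKM in NrasG12D/+, 40.4, 45.6 and 26.1 RPKM in Tet2+/-, and 54.1, 41.5 and 52.9 RPKM in the compound mutant. Compound mutant libraries lay above wild type but overlapped both single mutants. The difference from wild type was 0.52 ± 0.24 (interval -0.01 to 1.05, adjusted p = 0.767). Differences for the other synthetases were 0.13 ± 0.18 for Nars, -0.06 ± 0.34 for Wars, -0.19 ± 0.19 for Sars and -0.32 ± 0.28 for Aars, all with intervals that include 0.

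The feedback regulators varied widely between libraries of 1 genotype. Trib3, a pseudokinase induced by ATF4 and CHOP that restrains them, read 4.34, 2.18 and 3.75 RPKM in wild type, 1.54, 5.15 and 2.07 RPKM in NrasG12D/+, 3.76, 4.002 and 6.73 RPKM in Tet2+/-, and 0.421, 0.0586 and 4.30 RPKM in the compound mutant. The compound mutant libraries held 28, 6 and 397 reads, so 2 were the lowest of the 12 and the third stood among the highest. The difference was -2.79 ± 1.23 against wild type (unadjusted p = 0.0456, adjusted p = 0.767) and -3.30 ± 1.23 against Tet2+/- (unadjusted p = 0.0224, adjusted p = 0.832), and without compound mutant replicate 2 these were -1.29 and -1.79. Sesn2, a stress-induced inhibitor of mTORC1, read 2.504, 4.39 and 4.92 RPKM in wild type, 2.73, 3.09 and 5.19 RPKM in NrasG12D/+, 4.26, 1.61 and 3.31 RPKM in Tet2+/-, and 2.79, 1.13 and 4.34 RPKM in the compound mutant, with overlap throughout. Ddit4, another inhibitor of mTORC1, averaged 7.48 ± 5.46 RPKM (SD, n = 3) in wild type, where replicate 1 was the lowest of all libraries at 1.22 RPKM, and 8.69 ± 1.85 RPKM (SD, n = 3) in the compound mutant.

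Ppp1r15a encodes GADD34, which directs dephosphorylation of eIF2 and so ends the response. It read 11.1, 43.3 and 24.1 RPKM in wild type, 4.94, 30.8 and 20.1 RPKM in NrasG12D/+, 7.24, 43.2 and 14.3 RPKM in Tet2+/-, and 6.58, 26.9 and 11.2 RPKM in the compound mutant. In every genotype the library numbered 1 was the lowest and the library numbered 2 the highest. The compound mutant differed from wild type by -0.85 ± 0.86, and each of the 3 mutant genotypes overlapped wild type. Each of the 3 mutant genotypes was below the wild-type level of the same number for all 3 numbers, in Tet2+/- by as little as 43.2 against 43.3 RPKM. The labels do not call the number a pairing, and the 3 mutant genotypes were set against the same wild-type libraries. The share of all genes with this pattern was not computed, so it is not read as a result.

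The ER sensors are read here at the mRNA level, which does not measure their activation. Atf6 read 9.32, 7.83 and 7.78 RPKM in wild type, 8.01, 6.38 and 6.33 RPKM in NrasG12D/+, 8.28, 7.96 and 7.12 RPKM in Tet2+/-, and 8.41, 8.88 and 7.32 RPKM in the compound mutant. Eif2ak3 read 6.49, 6.19 and 4.76 RPKM in wild type, 5.48, 3.75 and 6.97 RPKM in NrasG12D/+, 5.85, 7.65 and 5.71 RPKM in Tet2+/-, and 7.59, 4.10 and 6.82 RPKM in the compound mutant. For the compound mutant against wild type the intervals were -0.37 to 0.33 for Atf6 and -0.61 to 0.71 for Eif2ak3, and all groups overlapped. Ern1 read 21.3, 27.7 and 75.8 RPKM in wild type, 23.7, 25.1 and 32.0 RPKM in NrasG12D/+, 17.0, 51.9 and 22.3 RPKM in Tet2+/-, and 18.9, 22.4 and 20.7 RPKM in the compound mutant. The compound mutant libraries were tightly grouped at the low end, below all NrasG12D/+ libraries, and 1 wild-type and 1 Tet2+/- library were far above the rest. The difference from wild type was -0.78 ± 0.48 (adjusted p = 0.808).

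Xbp1, the substrate of IRE1, read 12.1, 15.6 and 20.1 RPKM in wild type, 9.55, 10.5 and 12.7 RPKM in NrasG12D/+, 9.33, 20.2 and 10.1 RPKM in Tet2+/-, and 8.31, 12.5 and 8.40 RPKM in the compound mutant. The compound mutant overlapped wild type by 1 library, at 12.5 against 12.1 RPKM. The difference was -0.70 ± 0.31 (unadjusted p = 0.0462, adjusted p = 0.767), the smallest p of the ER arm in that comparison. Across the 12 libraries Xbp1 and Ern1 log2 levels had a Pearson r of 0.881, given as a description of points that share library, depth and genotype. Gene-level values do not separate spliced from unspliced Xbp1.

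The chaperones include Calr, the most abundant member of the set. Hspa5, which encodes BiP, the chaperone that holds the sensors inactive, read 40.2, 57.4 and 45.5 RPKM in wild type, 29.1, 50.2 and 47.1 RPKM in NrasG12D/+, 32.0, 69.2 and 27.3 RPKM in Tet2+/-, and 36.8, 43.1 and 35.8 RPKM in the compound mutant. Hsp90b1, the ER form of HSP90, read 39.3, 51.6 and 57.9 RPKM in wild type, 50.1, 61.1 and 57.8 RPKM in NrasG12D/+, 55.8, 59.5 and 36.1 RPKM in Tet2+/-, and 43.0, 55.1 and 57.7 RPKM in the compound mutant. All groups overlapped for both, with compound mutant differences of -0.29 ± 0.33 for Hspa5 and 0.07 ± 0.21 for Hsp90b1. Calr, which with Canx retains glycoproteins until they fold, read 163, 131 and 134 RPKM in wild type, 136, 136 and 140.1 RPKM in NrasG12D/+, 164, 144 and 123.1 RPKM in Tet2+/-, and 125, 108 and 128 RPKM in the compound mutant. The compound mutant lay below wild type and below NrasG12D/+ without overlap, by a difference of -0.24 ± 0.13 against wild type (unadjusted p = 0.09, adjusted p = 0.793). Canx, its membrane-bound relative, read 36.1, 45.1 and 48.7 RPKM in wild type, 43.2, 43.99 and 50.8 RPKM in NrasG12D/+, 48.4, 47.5 and 43.4 RPKM in Tet2+/-, and 44.5, 41.7 and 42.1 RPKM in the compound mutant, and its interval of -0.27 to 0.26 was the narrowest of the 42.

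Of BiP's partners, Dnajb9 and Sdf2l1 varied more than Hspa5, with the highest library 5.32 and 7.13 times the lowest against 2.54 times. Dnajc3 and Hyou1 varied less, at 1.96 and 2.19 times. Dnajb9, a co-chaperone that also restrains IRE1, read 21.2, 37.5 and 28.4 RPKM in wild type, 7.31, 38.9 and 20.7 RPKM in NrasG12D/+, 17.6, 35.9 and 13.7 RPKM in Tet2+/-, and 17.9, 29.4 and 21.5 RPKM in the compound mutant. Sdf2l1, a component of a BiP complex, read 10.2, 4.42 and 12.0 RPKM in wild type, 6.83, 16.4 and 10.5 RPKM in NrasG12D/+, 5.19, 5.94 and 4.23 RPKM in Tet2+/-, and 7.05, 15.8 and 2.30 RPKM in the compound mutant. The groups overlapped for both genes against wild type, with differences of -0.33 ± 0.55 for Dnajb9 and -0.36 ± 0.64 for Sdf2l1 in the compound mutant. Dnajc3, which encodes the co-chaperone p58IPK, averaged 20.4 ± 0.628 RPKM (SD, n = 3) in Tet2+/- and 17.5 ± 1.25 RPKM (SD, n = 3) in the compound mutant. It was the 1 member whose compound mutant libraries lay wholly below Tet2+/- (6.53% of all genes), and 0 lay wholly above (6.22%). Hyou1, a large HSP70 relative that exchanges BiP's nucleotide, averaged 4.99 ± 0.593 RPKM in wild type and 3.72 ± 0.633 RPKM in the compound mutant (SD, n = 3 each), a difference of -0.43 ± 0.32.

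The disulfide isomerases had negative estimates in the compound mutant. Pdia6 read 23.4, 16.6 and 16.4 RPKM in wild type, 13.0, 12.3 and 18.5 RPKM in NrasG12D/+, 19.3, 16.5 and 10.5 RPKM in Tet2+/-, and 10.4, 12.0 and 15.9 RPKM in the compound mutant. Pdia4 read 48.6, 43.2 and 47.8 RPKM in wild type, 37.0, 49.3 and 40.9 RPKM in NrasG12D/+, 56.9, 49.1 and 32.5 RPKM in Tet2+/-, and 36.6, 23.2 and 46.0 RPKM in the compound mutant. Pdia3 read 91.3, 68.7 and 91.8 RPKM in wild type, 78.9, 69.9 and 77.7 RPKM in NrasG12D/+, 84.7, 68.9 and 62.8 RPKM in Tet2+/-, and 72.0, 73.1 and 71.3 RPKM in the compound mutant. Pdia6 was below wild type without overlap by a narrow gap, 15.9 against 16.4 RPKM, and the other isomerases overlapped. The differences were -0.56 ± 0.27 for Pdia6 (unadjusted p = 0.0609, adjusted p = 0.767), -0.45 ± 0.26 for Pdia4 and -0.21 ± 0.14 for Pdia3.

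Among degradation genes, Herpud1, which organizes the ubiquitin ligase complex for misfolded ER proteins, read 8.18, 7.81 and 8.40 RPKM in wild type, 5.79, 11.5 and 9.22 RPKM in NrasG12D/+, 4.62, 7.97 and 5.30 RPKM in Tet2+/-, and 4.16, 9.25 and 8.01 RPKM in the compound mutant. Wild type was the tightest group and lay within the range of the compound mutant. Sel1l, the adaptor of the same ligase, averaged 5.91 ± 0.332 RPKM in wild type and 5.49 ± 0.895 RPKM in the compound mutant, and Edem1, which routes misfolded glycoproteins to it, 9.06 ± 2.56 and 8.62 ± 3.56 RPKM (SD, n = 3 each).

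The last ER-arm members are secreted or luminal stress factors. Creld2, whose promoter carries the ER stress element, read 23.1, 16.0 and 13.8 RPKM in wild type, 14.0, 11.7 and 12.2 RPKM in NrasG12D/+, 11.5, 21.1 and 7.25 RPKM in Tet2+/-, and 9.09, 0.0280 and 10.8 RPKM in the compound mutant. The compound mutant lay below wild type and NrasG12D/+, and its lowest library held 1 read against 262 to 746 reads in the other 11. Its difference from wild type was -3.62 ± 1.804 (adjusted p = 0.775) with that library and -0.80 without it. In compound mutant replicate 2, 14 genes had at most 1 read while holding at least 100 in each of the other 11 libraries, Mthfd2 and Creld2 among them, and wild-type replicate 1 had 107 such genes. Manf, a secreted ER protein, averaged 7.07 ± 4.26 RPKM in wild type and 5.48 ± 1.98 RPKM in the compound mutant (SD, n = 3 each).

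Between the compound mutant and NrasG12D/+, which differ in the Tet2 allele alone, 3 members lay wholly lower in the compound mutant, Creld2, Calr and Ern1 (4.33% of all genes), and 0 wholly higher (4.15%). With all 6 carriers of an allele set against the other 6 libraries, 0 members were without overlap for the Nras allele (0.459% of all genes higher, 0.388% lower) and 0 for the Tet2 allele (0.0646% in each direction).

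Several members varied with the replicate number. The ATF4 arm's summed level was 329 to 384 RPKM in the libraries numbered 2, against 265 to 284 RPKM in those numbered 1 and 261 to 305 RPKM in those numbered 3, with Atf4 itself at 110.3 to 128 RPKM in the first of these and 50.2 to 70.7 RPKM in the rest. By genotype the same sums overlapped, at 265 to 356 RPKM in wild type, 266 to 339 RPKM in NrasG12D/+, 261 to 384 RPKM in Tet2+/- and 284 to 329 RPKM in the compound mutant. The ATF4 arm's median level, over tested members of log2 RPKM minus the member's mean, overlapped between the numbers. It ran from -0.10 to 0.03 in number 1, -0.11 to 0.12 in number 2 and -0.17 to 0.17 in number 3. The ER arm's sums overlapped between the numbers. Atf4, Ppp1r15a, Hspa5 and Dnajb9 were highest in the library numbered 2 of all 4 genotypes, 4 of 42 tested members beside 1.85% of all tested genes. Psph, Ppp1r15a, Xbp1 and Ern1 were lowest in the library numbered 1 of all 4 genotypes (2.7% of all genes), and Sel1l and Atf6 in the library numbered 3 (0.963%). In the reverse directions 0 members qualified, with 1.92% of all genes highest in number 1, 1.18% lowest in number 2 and 1.58% highest in number 3. The 12 genes induced by sorting and handling were also highest in summed level in the libraries numbered 2, at 694 to 903 RPKM. Their sums were 108 to 195 RPKM in those numbered 1 and 201 to 372 RPKM in those numbered 3, whereas the ATF4 arm's sums overlapped between these 2 numbers. Their part in the members' values was not tested. The labels do not describe the number as a batch, and the pattern was picked after the values were seen.

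**Figure D4:**
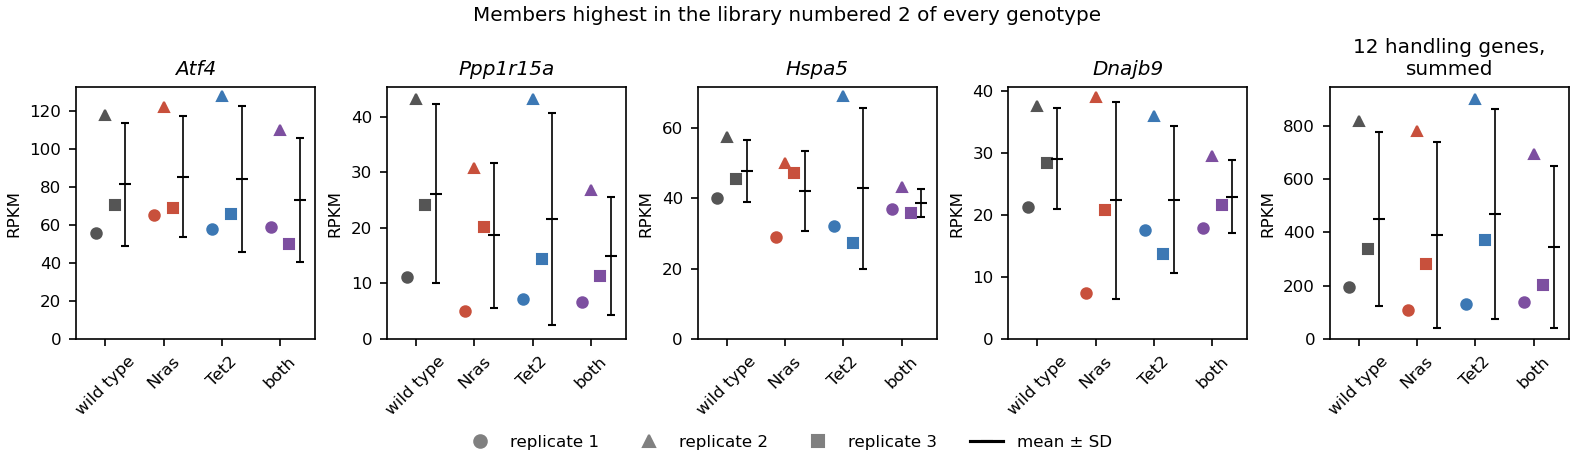
RPKM of Atf4, Ppp1r15a, Hspa5 and Dnajb9 and the summed RPKM of 12 sorting and handling genes in each library, with mean and SD of 3 libraries. The triangle, replicate 2, is the highest point of every genotype in every panel, and the summed handling genes reach 694 to 903 RPKM there.

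Of 861 pairs of tested members, 85.2% had a Pearson r between -0.5 and 0.5, and the median size of r, without its sign, was 0.236. Over 231 pairs of ATF4-arm members, the median Pearson r of log2 RPKM across 12 libraries was 0.0136, over 190 ER-arm pairs 0.161, and over 440 pairs between the arms 0.107. Ppp1r15a was among the exceptions, with r of 0.865 to Dnajb9, 0.844 to Hspa5 and 0.829 to Atf4. The r of 0.984 between Mthfd2 and Creld2 rests on the 1 library where both were at or near 0 reads. These values are descriptions, since the points share libraries and depth.

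Genes of the same pathways outside the set were counted the same way. Of 45 further ATF4-linked and eIF2 genes in the table, 39 were tested and 0 were called in any comparison, with 20 positive and 19 negative differences in the compound mutant against wild type and a median of 0.02. Dars and Iars, which charge aspartate and isoleucine tRNA, had the smallest p there, at 0.51 ± 0.19 (adjusted p = 0.754) and 0.33 ± 0.14 (adjusted p = 0.76). Of 52 further ER folding and degradation genes, 48 were tested and 0 were called, with 33 negative and 15 positive in the compound mutant, a median of -0.12, and 29 of 48 negative in NrasG12D/+ and 24 of 48 in Tet2+/-. Cytosolic heat shock genes had 7 of 9 negative and mitochondrial protein stress genes 5 of 10.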

How the data were processed

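Total RNA libraries of sorted HSCs, 3 per genotype, were analysed from 1 deposited table of log2 RPKM for 18546 genes, recorded as an other unit than counts because its columns are headed by bare numbers. Per the submitters' processing notes, CASAVA 1.8.2, TopHat2 and edgeR were used with mm10; their roles and the counting of strand are not given in the sources used here. The deposited values fitted whole reads with a prior of 0.25 reads for 100% of genes (tolerance 0.001 reads), which gave depth and read counts. Floors of 3 reads cover counting error only.

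Genes at 1 RPKM or more in at least 3 libraries were tested (15478 kept, 3068 left out). In R 4.3.3, limma 3.58.1 fitted 1 mean per genotype over 12 libraries with a variance trend and 8 residual degrees of freedom; tests were two-sided and adjusted by Benjamini-Hochberg. The fit was tested on simulated data. Alternatives covered the filter, pseudocount, scaling, weights, trend, voom, replicate block, groups fitted and each library left out. The members and gene lists were chosen with earlier results of these data known. Library values are given for key members of each arm and for the 2 with the smallest p per comparison. Gene coordinates are GENCODE M21 and promoters RefSeq GRCm38.p6, with an element's flank cut from 20 to 5 bases where it met an annotated exon.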

Additional observations from a re-analysis of the deposited data

How the results depend on the processing

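No member passed the threshold under any alternative; the smallest adjusted p was 0.113, for Cebpb and the averaged Nras allele with library quality weights. Of 7266 member values under the alternatives, 92.5% kept the sign. With 3 libraries per genotype, intervals of single members such as Trib3 spanned several log2 units, so differences of that size were not detectable for the variable members. The ER-arm count of negative differences in the compound mutant against wild type stayed at 16 to 18 of 20 over 22 alternatives, with medians of -0.31 to -0.22.

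The ATF4-arm median for the interaction, -0.09, was 0.0711 with quantile normalization and 0.0872 without the pair of libraries that had the largest number of undetected genes (wild-type replicate 1 and NrasG12D/+ replicate 2), an alternative chosen after seeing the data, under which 8 rather than 13 members were negative; the cause was not tested. With 1 library left out at a time it ran from -0.14 to 0.0421. The ER-arm median of the compound mutant against NrasG12D/+ ran from -0.28 (without NrasG12D/+ replicate 1) to -0.0541, and the ATF4-arm median of Tet2+/- against wild type from -0.19 (without Tet2+/- replicate 2) to 0.00382. The fit restricted to the groups compared was not run for the interaction and the averaged alleles.

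Replicate numbers recur across genotypes, and the labels do not say what they mark. Over all tested genes the deviations did not meet the rule used here for pairing (every same-numbered pair above 0.1), although the handling genes and the ATF4 arm's sum split by number. Deviations of 18 same-numbered pairs correlated at -0.125 to 0.136, and of 36 other pairs at -0.143 to 0.162. Even so, 8 of 12 libraries correlated best with one of their own number, while most possible partners had another number. A part of the number in the values is therefore not excluded. With the number as a replicate block, 0 members were called in every comparison, and Cebpb for the averaged Nras allele was -0.94 with adjusted p = 0.416 and Ppp1r15a in the compound mutant against wild type -0.85 with adjusted p = 0.707 (0.868 without the block).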
